A study of Homo sapiens with 3 samples.

Results

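The epidermal growth factor (EGF) receptor family and its ligands were followed as 9 genes chosen by symbol, out of 33538 genes in the count matrices. They are the receptors EGFR, ERBB2 and ERBB3, the ligands AREG (amphiregulin), EREG (epiregulin), TGFA (transforming growth factor alpha) and HBEGF (heparin-binding EGF-like growth factor), the receptor inhibitor ERRFI1 (also called MIG6) and the growth-promoting transcription factor MYC. The rule used the symbols alone and no measured value, although the members were chosen with earlier results of these data known. Cells of the human colorectal adenocarcinoma lines Caco-2 and HT29 had been seeded together at 9 to 1 on Transwell inserts. There were 2 untreated control libraries and 1 library of the same co-culture given 1 ng/ml lipopolysaccharide (LPS, the outer-membrane lipid of Gram-negative bacteria) from E. coli O111:B4 for 24 h from day 22, and every library was harvested on day 23. RNA was read with a droplet 3′ assay in which each captured molecule carries a unique molecular identifier (UMI). Both lines are tumour-derived and each stands for 1 donor's tumour, and they shared every well, so levels in a line are levels in the presence of the other line.

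The ligands are made as membrane-bound precursors that proteases of the ADAM family and their rhomboid cofactors release, after which they bind EGFR on the same or a neighbouring cell. Bound receptors pair with each other, ERBB2 without a ligand of its own and ERBB3 with little kinase activity of its own, and signal through RAS and the ERK kinases to genes that include MYC. In the intestine this pathway is known for driving crypt proliferation and repair after injury. ERRFI1 is induced by the pathway and binds the receptor kinase to switch it off.

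After filtering, 14472 cells remained with a median of 5459, 4103 and 3573.5 UMIs per cell in control 1, control 2 and the LPS-treated library. Each cell was assigned to a line from genes set apart from the members, which gave 2728 HT29-line cells, 11491 Caco-2-line cells and 253 unresolved cells (1.75%). HT29-line cells made up 15.3%, 22.4% and 18.5% of the 3 libraries. Genes kept out of the assignment were compared between the lines as a check. They were chosen with earlier results of these data known, so the check was not independent of those results. The 4 HT29 genes LCN2, TCN1, KLK6 and KLK10 stood in Caco-2-line cells at 0 to 1.04% of their HT29-line level over the libraries. The 4 Caco-2 genes APOA1, APOA2, RBP2 and APOA4 stood in HT29-line cells at 14.3 to 28.6% of their Caco-2-line level, a larger share. Background from the other line and expression by the cells themselves were not told apart in these shares. Libraries shared 9 to 11 barcodes pairwise. Levels are given as counts per 1000000 UMIs of the summed cells (CPM), which in a 3′ assay counts molecules and not length.

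AREG and EREG are neighbours on chromosome 4, read in the same direction, with 56386 bases and 1 other measured gene between them. EREG lies at chr4:74365145-74388749 and AREG at chr4:74445136-74455005 of GRCh38. Their upstream sequences are shown because each gene was among the 2 most like the other in pattern over the clusters, as described below. The 250 bases before each start come from RefSeq (GRCh38.p14), plus strand, with the letters TATAAA and the cyclic AMP response element TGACGTCA in capitals. AREG at chr4:74444886-74445135 and EREG at chr4:74364895-74365144 read as follows.
AREG: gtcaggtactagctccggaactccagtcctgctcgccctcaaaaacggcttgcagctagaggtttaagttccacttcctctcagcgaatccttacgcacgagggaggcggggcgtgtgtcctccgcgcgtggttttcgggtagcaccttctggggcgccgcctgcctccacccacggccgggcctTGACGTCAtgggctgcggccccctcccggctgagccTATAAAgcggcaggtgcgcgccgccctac
EREG: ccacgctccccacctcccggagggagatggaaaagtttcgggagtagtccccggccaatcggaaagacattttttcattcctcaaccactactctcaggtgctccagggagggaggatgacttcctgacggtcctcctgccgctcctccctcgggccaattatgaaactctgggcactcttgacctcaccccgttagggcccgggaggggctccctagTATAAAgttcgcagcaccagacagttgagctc
Both hold TATAAA, beginning 29 bases before the start in AREG and 32 bases before it in EREG. These letters, searched on both strands, occurred in 10.7% of 35116 upstream windows of the same length. TGACGTCA begins 65 bases before the start of AREG and occurred in 1.65% of windows, and it was not found in the window of EREG. Of the 7 members searched (TGFA and EGFR with 2 starts each), only 1 further window, the second of EGFR, held TATAAA, and none other held TGACGTCA. The AP-1 letters TGANTCA were found in the second window of EGFR and that of ERBB2, against 6.57% of all windows.

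The first question was how the members are divided between the 2 lines that share the co-culture. All 4 ligands and ERRFI1 were higher in HT29-line cells, EGFR was lower there, and ERBB2, ERBB3 and MYC did not pass the test. That is 6 of 9 members at an adjusted p under 0.05 with the quasi-likelihood test of edgeR on 6 sums with the library as a block, against 73.2% of the 14086 genes tested. In the HT29 direction 5 of 9 passed, where 35.6% of all genes did, and in the other direction 1 of 9, where 37.6% did. The lines differ in most genes, so the share of members that passed was close to the background. Their median log2 fold change (HT29-line over Caco-2-line) was 0.45, and that of all genes was -0.05.

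Among the ligands the difference was largest for TGFA, a high-affinity ligand of EGFR. HT29-line cells held 21.1, 23.1 and 22.6 CPM of TGFA in control 1, control 2 and the LPS-treated library, from 101, 117 and 87 UMIs. Caco-2-line cells held 0.205, 0.374 and 0.369 CPM, from 5, 7 and 6 UMIs in all. The lines did not overlap, with a log2 fold change of 6.13 ± 0.23 (SE, adjusted p = 5.61e-18 by edgeR), and 123 genes had a larger one. It was 5.34 with cells thinned to 1500 UMIs and 5.03 with cells assigned by the held-out genes alone. That rule calls a cell HT29 only if it holds a UMI of the held-out HT29 genes and none of the held-out Caco-2 genes. It left 310, 395 and 309 HT29-line cells, against 711, 1119 and 898, selected for the absence of those Caco-2 transcripts. The Caco-2-line level was 0.969 to 1.63% of the HT29-line level, beside the 0 to 1.04% of the held-out HT29 genes, with control 1 inside that range and the other libraries, at 1.62% and 1.63%, above it. Whether these few UMIs came from Caco-2-line cells or from HT29 background was not tested.

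HBEGF, a ligand that is also bound by heparan sulfate, was at 23.2, 27.3 and 24.4 CPM in HT29-line cells and at 7.54, 9.51 and 8.31 CPM in Caco-2-line cells. The lowest HT29-line library was above the highest Caco-2-line library, and the log2 fold change was 1.55 ± 0.13 (SE, adjusted p = 7.65e-11 by edgeR). In Caco-2-line cells HBEGF stood at 32.5 to 34.9% of its HT29-line level, well above the held-out HT29 genes.

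AREG, a low-affinity ligand of EGFR, was at 190, 212 and 218 CPM in HT29-line cells and at 155, 149 and 126 CPM in Caco-2-line cells. EREG, which binds EGFR and ERBB4, was at 49.4, 49.8 and 78.0 CPM in HT29-line cells and at 38.6, 41.3 and 46.6 CPM in Caco-2-line cells. The lines did not overlap for either gene, but the differences were small beside those of TGFA and HBEGF. The log2 fold change was 0.51 ± 0.08 for AREG (SE, adjusted p = 4.43e-06 by edgeR). For EREG it was 0.45 ± 0.10 (SE, adjusted p = 0.000253 by edgeR). It was smaller in the controls alone, at 0.31 (adjusted p = 0.0242), and with cells thinned to 1500 UMIs, at 0.30 (adjusted p = 0.0476).

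ERRFI1 was the other member with a large difference. It was at 166, 215 and 187 CPM in HT29-line cells and at 7.91, 10.6 and 11.1 CPM in Caco-2-line cells, a log2 fold change of 4.26 ± 0.09 (SE, adjusted p = 6.64e-23 by edgeR). At 4.76 to 5.93% of the HT29-line level, the Caco-2-line level was above the range of the held-out HT29 genes. TGFA and ERRFI1 also stand on a list of HT29 genes, and EGFR on a list of fetal genes, that the study drew from these same control libraries, so such a list is not independent evidence of their direction.

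The receptors were more alike between the lines than TGFA, HBEGF and ERRFI1, but EGFR differed by about as much as EREG, in the other direction. EGFR, the receptor for all 4 ligands, was at 21.4, 31.0 and 27.0 CPM in HT29-line cells and at 32.3, 32.95 and 41.3 CPM in Caco-2-line cells. The highest HT29-line library was just below the lowest Caco-2-line library, with a log2 fold change of -0.43 ± 0.11 (SE, adjusted p = 0.00181 by edgeR). That call was lost when cells were assigned by the held-out genes alone, with fewer HT29-line cells. The log2 fold change was then -0.33 (adjusted p = 0.0753 by edgeR). EGFR is also a gene for which Caco-2 background would raise the HT29-line level, and the part of that background was not tested.

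ERBB2 (HER2), the partner receptor, was at 51.3, 48.2 and 63.4 CPM in HT29-line cells and at 51.5, 48.8 and 60.5 CPM in Caco-2-line cells. The values overlapped in every library, with a log2 fold change of 0.00 ± 0.09 (SE) and a 95% interval of -0.17 to 0.17. ERBB3 (HER3), the receptor that recruits PI3-kinase, was at 100.5, 144 and 132 CPM against 119, 131 and 152 CPM. Its log2 fold change was -0.11 with a 95% interval of -0.27 to 0.05 (adjusted p = 0.239 by edgeR). Without control 2 the difference of ERBB3 passed the test at -0.23 (adjusted p = 0.0149).

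**Figure D1:**
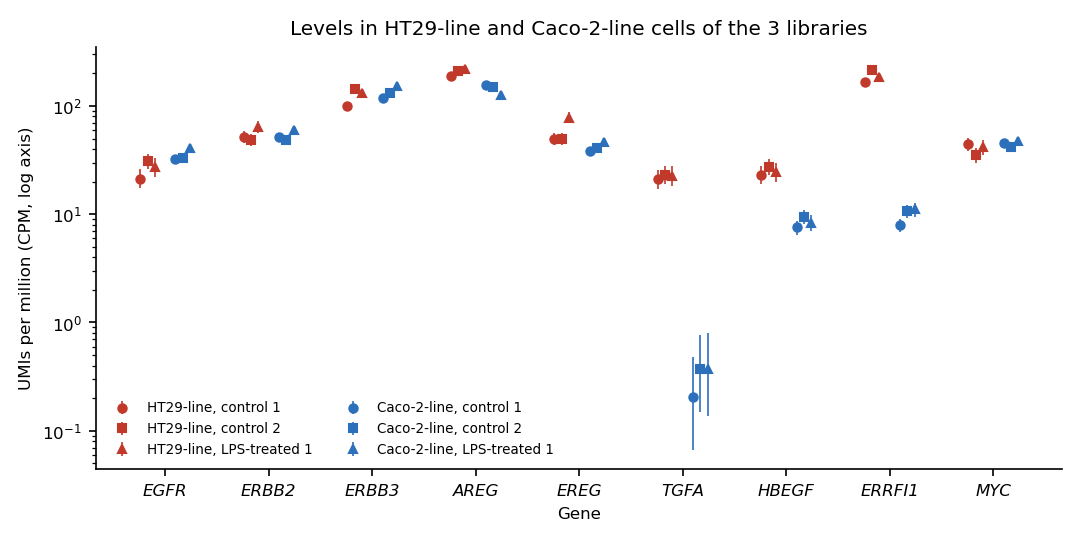
Level of each member (CPM, log axis) in HT29-line cells (red) and Caco-2-line cells (blue), 1 point per library with the exact 95% Poisson interval, which covers counting error only. TGFA, HBEGF and ERRFI1 separate widely, from 7.91 to 215 CPM for ERRFI1, while ERBB2 overlaps at 48.2 to 63.4 CPM.

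MYC was at 44.4, 35.0 and 41.6 CPM in HT29-line cells and at 45.8, 41.8 and 47.3 CPM in Caco-2-line cells. Its log2 fold change was -0.17, with a 95% interval of -0.36 to 0.01 (adjusted p = 0.104 by edgeR). It passed the test when no doublets were removed, at -0.22 (adjusted p = 0.0253), and with cells assigned by the held-out genes alone, at -0.43 (adjusted p = 0.00874). The genes around MYC on chromosome 8 did not share its level. Of 33 other tested genes within 5 Mb on either side, 31 were higher in HT29-line cells and 1 was lower, with a median log2 fold change of 2.18. Examples are SQLE, an enzyme of sterol synthesis, at 2.40 and TRIB1, a pseudokinase, at 3.38. The neighbours of the other members had medians between -0.29 (TGFA, 77 genes) and 0.17 (ERBB2, 166 genes), with -0.17 for ERRFI1. The window was chosen after other results were known. The sources of the difference around MYC and of those in the other members were not tested.

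The genes that act before and after the receptors were taken from lists of the pathway. Of 6 genes that act on ligand release, 5 passed the test, against 73.2% of all genes. The 4 higher in HT29-line cells (RHBDL2, RHBDF1, RHBDF2 and ADAM17) are proteases or their cofactors, and the 1 lower, TIMP3, is an inhibitor, so the median log2 fold change of 0.70 spans opposite roles. RHBDL2, a rhomboid protease, was at 25.5, 23.7 and 25.7 CPM in HT29-line cells and at 0.205, 0.427 and 0.246 CPM in Caco-2-line cells, a log2 fold change of 6.38 ± 0.23 (SE), or 4.96 with cells assigned by the held-out genes alone. The Caco-2-line values rest on 5, 8 and 4 UMIs, at 0.803, 1.80 and 0.957% of the HT29-line level. The held-out HT29 genes stood at 0 to 1.04%, and expression of RHBDL2 by Caco-2-line cells was not told apart from HT29 background. RHBDF1 (iRhom1), which carries the protease ADAM17 to the surface, differed by 3.397 ± 0.10, and ADAM17 itself by 0.32 ± 0.10. TIMP3, an inhibitor of ADAM17, was lower in HT29-line cells, at 15.9, 14.8 and 14.6 CPM against 97.8, 100.5 and 114 CPM. Its log2 fold change was -2.79 ± 0.11, or -3.74 with the line taken from the cluster and -4.87 with cells assigned by the held-out genes alone. At 12.7 to 16.3% of the Caco-2-line level, the HT29-line level was within or below the 14.3 to 28.6% of the held-out Caco-2 genes, so expression of TIMP3 by HT29-line cells was not told apart from Caco-2 background. Of the 8 further ligands and receptors only BTC (betacellulin) and EGF passed the filter on low counts. BTC was higher in HT29-line cells at 3.54 ± 0.44, although Caco-2-line cells held only 4, 8 and 4 UMIs of it, and EGF differed by 0.04 (adjusted p = 0.928 by edgeR).

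Downstream, the lists went both ways, with 19 of 24 signal transduction genes past the test, 10 higher and 9 lower in HT29-line cells. HRAS, a RAS protein, had the largest difference of these at 2.18 ± 0.10. Among 13 genes of receptor turnover 5 were higher and 4 lower, and their median was 0.09. Of 10 genes of ERK feedback, which dampen the pathway, 6 were higher and none lower, with a median of 0.44. DUSP4, an ERK phosphatase, differed by 1.77 ± 0.18. All 10 ERK target genes passed, 6 higher and 4 lower, with a median of 0.72. The ETS factor ETV5 (1.99 ± 0.20), the early response gene IER3 (2.07 ± 0.10) and the receptor kinase EPHA2 (1.80 ± 0.13) were higher in HT29-line cells, and the cyclin CCND1 was lower (-1.76 ± 0.09). Of 12 MYC partners and targets 3 were higher and 7 lower, with a median of -0.33. These shares are to be read against 73.2% of all genes called. A further 12 immediate early and stress genes summed to between 2362 and 2602 CPM in HT29-line cells and between 2007 and 2384 CPM in Caco-2-line cells. Of these, 7 were higher and 3 lower in HT29-line cells. Handling and signalling were not told apart in them, and their part in these results was not tested.

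**Figure D2:**
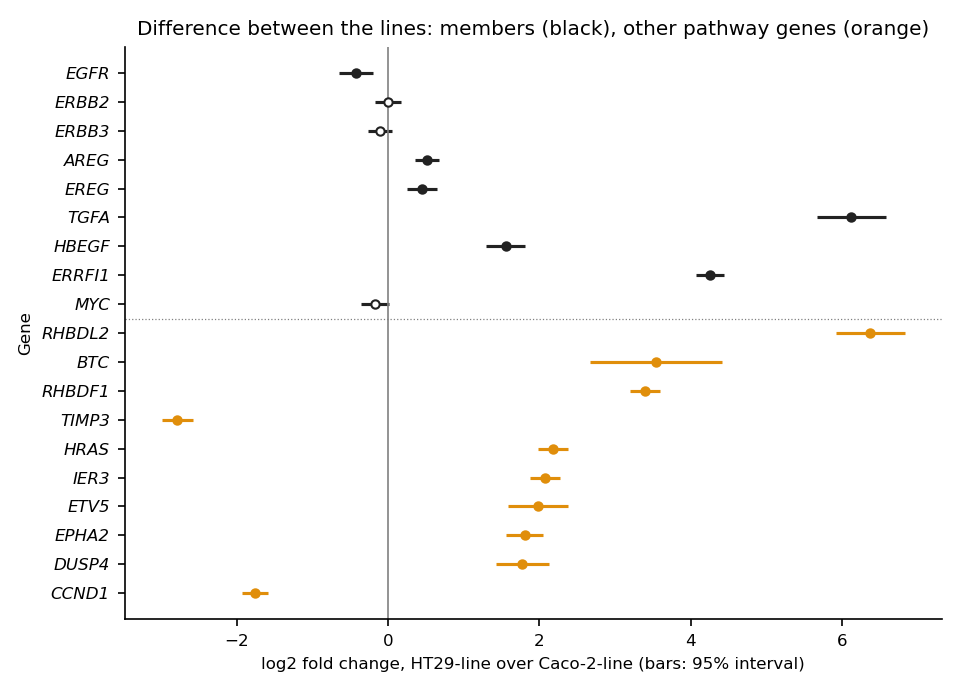
log2 fold change of HT29-line over Caco-2-line cells, with bars for the 95% interval from the SE, for the 9 members (black) and the 10 other pathway genes with the largest difference past the test (orange). Filled points passed an adjusted p of 0.05. The points run from RHBDL2 at 6.38 to TIMP3 at -2.79, with ERBB2 at 0.00.

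Shares of cells with a UMI gave the same division. To make depths comparable, each cell was thinned to 1500 UMIs, a depth that every kept cell reached, and intervals are exact Clopper-Pearson, for counting error only. At least 1 UMI of the 4 ligands was found in 33.2%, 33.4% and 31.7% of HT29-line cells in control 1, control 2 and the LPS-treated library. In Caco-2-line cells it was found in 18.2%, 19.98% and 17.7%. Without thinning these shares were 66.1%, 60.3% and 56.6% against 41.2%, 40.5% and 34.1%, at median depths of 5522, 3857 and 3710.5 UMIs for HT29-line and 5416, 4168 and 3547 for Caco-2-line cells. At least 1 UMI of the 3 receptors was found in 23.6%, 27.3% and 26.3% of HT29-line cells and in 25.3%, 27.5% and 30.3% of Caco-2-line cells. Ligand-bearing cells were therefore a larger fraction of HT29-line cells in all 3 libraries, and receptor-bearing cells were not.

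AREG was found in 24.1% (95% interval 21.0 to 27.4%), 23.8% (21.3 to 26.4%) and 21.9% (19.3 to 24.8%) of thinned HT29-line cells. In Caco-2-line cells it was found in 13.5% (12.5 to 14.7%), 15.1% (13.99 to 16.3%) and 12.7% (11.7 to 13.8%). ERRFI1 was found in 22.5%, 25.3% and 25.3% of HT29-line cells and in 1.04%, 1.41% and 1.54% of Caco-2-line cells. HBEGF was found in 4.22%, 3.84% and 3.45% against 0.991%, 1.33% and 1.10%. EREG was found in 6.19%, 6.34% and 9.02% of HT29-line cells and in 5.50%, 5.61% and 5.65% of Caco-2-line cells. The intervals of EREG overlapped between the lines in control 1 and control 2. EGFR was found in 3.23%, 4.29% and 4.23% against 4.77%, 4.57% and 5.37%, with overlapping intervals in all 3 libraries. TGFA was found in Caco-2-line cells in 0.0261%, 0.0797% and 0.128% of cells, shares at which HT29 background and expression were not told apart, and in 3.52%, 3.57% and 3.45% of HT29-line cells. Unthinned, the shares of AREG were 52.5%, 47.5% and 45.1% in HT29-line cells and 33.3%, 32.6% and 25.8% in Caco-2-line cells.

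Although a smaller share of Caco-2-line cells held AREG, its UMIs were more unevenly spread among Caco-2-line cells. The variance of thinned AREG counts over their mean, which is near 1 for random sampling of equal cells, was 1.82 to 2.37 in Caco-2-line cells and 1.10 to 1.36 in HT29-line cells. The 1% of Caco-2-line cells with the most AREG held 24.9%, 21.2% and 22.0% of its thinned UMIs in the 3 libraries, against 10.2%, 12.7% and 12.5% in HT29-line cells, whose higher share of positive cells lowers this measure. EREG ranged from 1.16 to 1.68 in Caco-2-line cells and from 1.16 to 1.44 in HT29-line cells, ranges that overlapped. ERRFI1 in HT29-line cells ranged from 1.32 to 1.77. For EGFR, ERBB2 and ERBB3 the ratio stayed between 0.998 and 1.24 in both lines.

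AREG and EREG were found in the same cells more often than their separate frequencies give. Among Caco-2-line cells with AREG, EREG was found in 12.7% (10.0 to 15.9%), 10.5% (8.14 to 13.4%) and 12.8% (9.94 to 16.02%) in control 1, control 2 and the LPS-treated library. Among those without AREG it was found in 4.37%, 4.73% and 4.62%. Over the 3 libraries 189 Caco-2-line cells held both, where 88.4 were to be had from the product of the shares. In HT29-line cells the shares of EREG were 7.60%, 9.02% and 16.2% with AREG against 5.74%, 5.51% and 6.99% without, and the intervals overlapped in control 1 and control 2. In HT29-line cells 69 cells held both where the product gives 45.2. ERBB2 with ERBB3 in Caco-2-line cells, a receptor pair, gave 205 against 160 (all 3 libraries above). Over all pairs of members the median ratio to the product was 1.12 in Caco-2-line and 1.11 in HT29-line cells. In Caco-2-line cells it was 2.14 for AREG with EREG, 1.28 for ERBB2 with ERBB3 and 1.44 for ERBB2 with HBEGF. In HT29-line cells it was 1.53 for AREG with EREG, 1.52 for EGFR with ERBB3 and 1.63 for EREG with HBEGF. The pairs with HBEGF rest on few cells, 14 against 9.74 in Caco-2-line and 12 against 7.38 in HT29-line cells. Pairs not listed here also exceeded 1.44 in Caco-2-line cells. Among them was AREG with HBEGF at 1.65, from 30 cells against 18.2, above the product in 2 libraries. These ratios are descriptions over cells of the same libraries, and they were not adjusted for cell state.

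**Figure D3:**
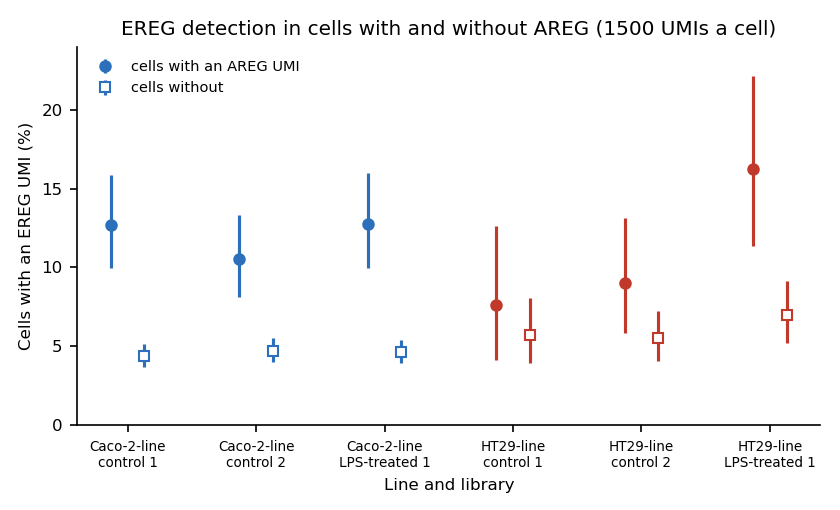
Share of cells with an EREG UMI (%) among cells with (filled) and without (open) an AREG UMI, by line and library, after thinning to 1500 UMIs, with exact 95% binomial intervals. In Caco-2-line cells the filled points lie at 10.5 to 12.8% and the open points at 4.37 to 4.73%.

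Clusters of the integrated cells, made without the members and the pathway genes, showed in which states these genes were expressed. They are described without a test. Classes were named only where fixed markers allowed it, and the others are called by leading genes. AREG and EREG were highest in the same 3 large clusters. In the undifferentiated HT29-like cluster (2335 cells) AREG was at 224 ± 16.1 CPM (SD, n = 3 libraries) and EREG at 62.9 ± 13.0 CPM. In the DKK1- and PLA2G2A-high cluster of Caco-2-line cells (3168 cells) AREG was at 204 ± 35.7 CPM and EREG at 60.6 ± 8.92 CPM. In the SLC2A3- and ANKRD37-high cluster (1041 Caco-2-line cells), whose leading genes include a glucose transporter, AREG was at 240 ± 134 CPM and EREG at 64.0 ± 10.1 CPM. These 3 clusters overlapped in range for both genes.

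The wide spread of AREG in the SLC2A3- and ANKRD37-high cluster came from control 1, where it was at 395 CPM against 152 and 172 CPM in the other libraries. Of 361 cells there, 232 held no AREG UMI, 23 held 10 or more, and the 10 cells with the most held 43.5% of its 726 UMIs, up to 55 in 1 cell. In control 2 and the LPS-treated library 2 and 3 cells of this cluster held 10 or more. At the other end, AREG was at 89.5 ± 7.70 CPM in enterocyte-like cells, 58.5 ± 20.8 CPM in the SST- and MUC2-high cluster of mostly HT29-line cells and 45.2 ± 7.02 CPM in enteroendocrine-like cells. The HT29-line clusters differed from each other. The SST- and MUC2-high cluster was below the undifferentiated cluster in all 3 libraries for AREG, HBEGF (4.72 ± 4.08 against 27.6 ± 2.32 CPM) and ERRFI1 (98.2 ± 18.1 against 208 ± 27.8 CPM). This did not hold for TGFA (25.1 ± 9.71 against 23.7 ± 1.49 CPM). HBEGF in the SST- and MUC2-high cluster rested on 0, 2 and 2 UMIs.

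The receptors followed a partly different order. Among clusters with 3 libraries, the SLC2A3- and ANKRD37-high cluster had the highest mean of ERBB2 and ERBB3. For ERBB3 the cluster led in all 3 libraries. For ERBB2 it was below enterocyte-like cells in control 2, at 60.4 against 62.9 CPM. It had the highest mean of AREG and EREG too, but its values for both led only in control 1. In control 2 and the LPS-treated library it was below the undifferentiated HT29-like cluster, for AREG at 152 and 172 against 233 and 234 CPM. For EREG it was at 53.0 and 66.1 against 55.4 and 78.0 CPM. Among Caco-2-line clusters with 3 libraries, EGFR, ERBB2 and ERBB3 were highest in enterocyte-like cells, the absorptive state, and in the SLC2A3- and ANKRD37-high cluster. ERBB3 was at 174 ± 34.0 and 194 ± 28.8 CPM there, against 91.4 ± 9.77 CPM in transit-amplifying-like cells, which hold S-phase genes. ERBB2 was at 67.9 ± 9.94 and 72.9 ± 15.1 CPM against 42.8 ± 6.09 CPM. The ranges over libraries of ERBB2 and ERBB3 in these 2 clusters lay above those of the transit-amplifying-like cluster. For EGFR (44.5 ± 9.56, 41.5 ± 6.60 and 30.5 ± 6.25 CPM) the enterocyte-like range did too, and that of the SLC2A3- and ANKRD37-high cluster overlapped it.

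EGFR stood apart in 1 rare cluster, that of fetal gene expressing cells, with 73 cells of which 8 were in the LPS-treated library. It was at 297 CPM in control 1 (21 cells, 57 UMIs) and 127 CPM in control 2 (44 cells, 36 UMIs), and the next cluster was at 44.5 CPM. ERRFI1 was at 109 CPM there in both controls, above every other cluster of mostly Caco-2-line cells, where it ranged from 5.21 to 53.1 CPM. AREG was lowest in these cells, at 26.0 and 21.2 CPM, ERBB3 was at 31.3 and 52.9 CPM, and TGFA was not found. Most of these cells (87.7%) were assigned to Caco-2. The markers that name the cluster, like EGFR's place beside them, come from lists the study made on these controls, so this is not independent of them.

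MYC was highest in the DKK1- and PLA2G2A-high cluster at 56.8 ± 6.89 CPM and in transit-amplifying-like cells at 53.4 ± 1.956 CPM, whose ranges overlapped. It was at 24.8 ± 7.79 CPM in enterocyte-like cells, below both in every library. In enteroendocrine-like cells it was at 15.9 ± 12.6 CPM, from 2, 2 and 4 UMIs. TGFA was at 0 to 1.86 CPM in every cluster of mostly Caco-2-line cells with 3 libraries. A further cluster of 48 cells led by NEAT1, mostly HT29-line and with a median of 1943.5 UMIs, reached 20 cells only in control 2, where ERRFI1 was at 851 CPM and EREG at 163 CPM from 47 and 9 UMIs.

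**Figure D4:**
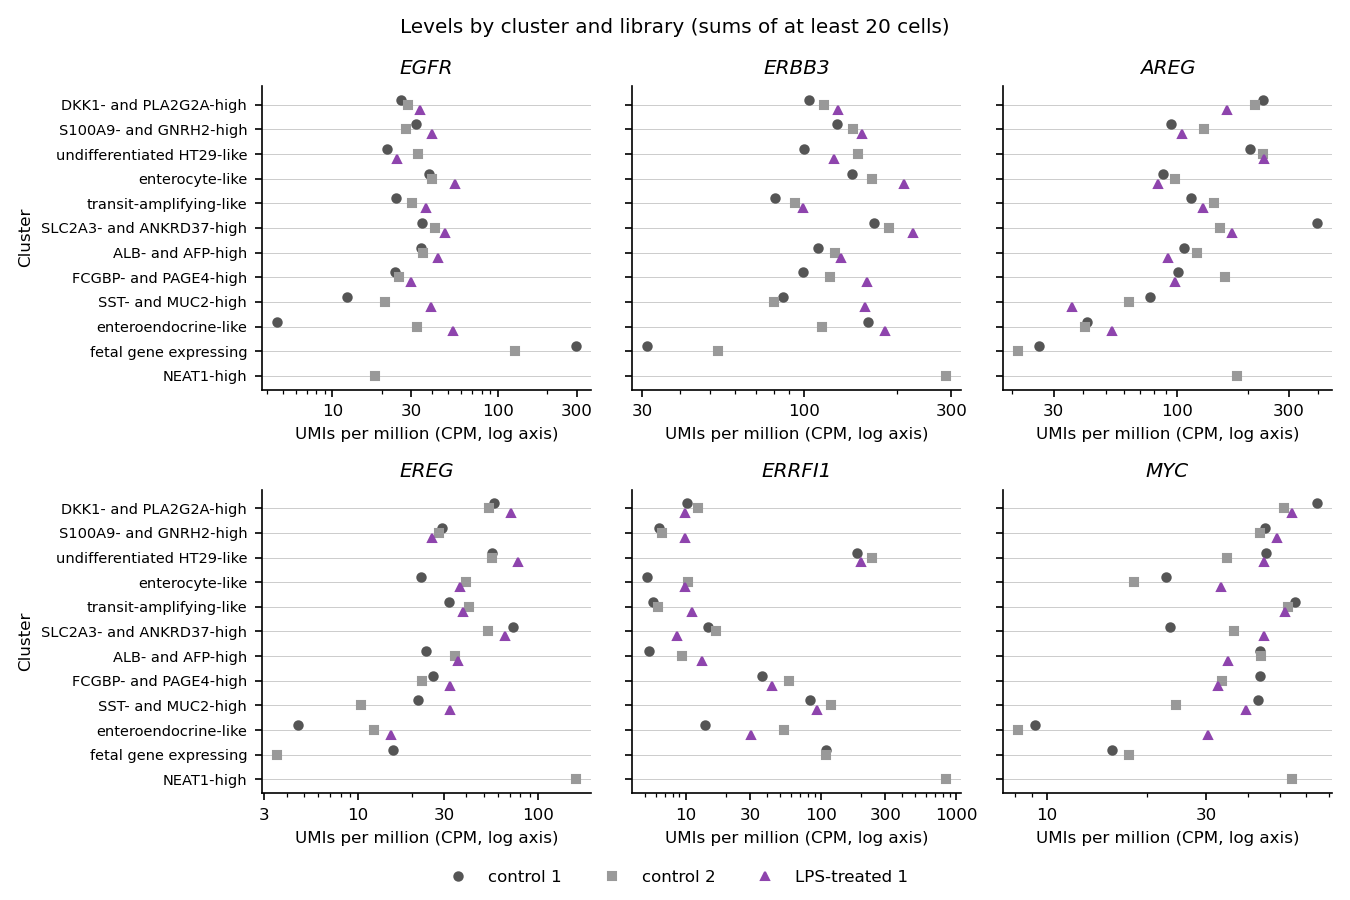
Level (CPM, log axis) of EGFR, ERBB3, AREG, EREG, ERRFI1 and MYC by cluster, 1 point per library with at least 20 cells, points at 0 left out. EGFR reaches 127 and 297 CPM in the fetal gene expressing cluster, and AREG reaches 395 CPM in the SLC2A3- and ANKRD37-high cluster of control 1.

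Likeness of pattern was measured as the Pearson correlation of log2(CPM + 1) over the 33 sums of a cluster and a library, among 5835 genes with a mean of at least 20 CPM. These sums share libraries and line background, and the values are descriptions. AREG was most like EREG (0.82) and AHR (0.76), the aryl hydrocarbon receptor. EREG was most like AHR (0.85) and AREG (0.82), so the neighbouring ligand was among the first 2 for each. ERRFI1 was most like BBX (0.94) and NUPR1 (0.92), MYC most like HES1 (0.77), a Notch target, and AHR (0.74). EGFR was most like GATA3 (0.85) and EPAS1 (0.84), ERBB2 like SLC26A6 (0.81) and KLC4 (0.80), and ERBB3 like PAG1 (0.86) and MYLK (0.84). GATA3 is among the markers of the fetal gene expressing cells. TGFA and HBEGF had means under 20 CPM.

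The second question was whether the members differ after LPS. With 1 treated library the spread came from the 2 controls alone, and the lone library was taken to vary as they do. No member passed the test in all cells (0 of 9), in Caco-2-line cells (0 of 8) or in HT29-line cells (0 of 9). This held for edgeR's quasi-likelihood test and for DESeq2. Among all genes 0.105%, 0.0781% and 0.233% passed in these comparisons. The median log2 fold change of the members (LPS-treated over control) was 0.03, 0.17 and 0.02, and of all genes 0.01, 0.01 and -0.0012. TGFA was too low to be tested in Caco-2-line cells.

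AREG in Caco-2-line cells had the lowest unadjusted p there, at 126 CPM after LPS against 155 and 149 CPM in the controls. The log2 fold change was -0.35 ± 0.15 (SE, adjusted p = 0.757 by edgeR). EREG in HT29-line cells was at 78.0 CPM against 49.4 and 49.8 CPM, with a log2 fold change of 0.60 ± 0.24 (SE, adjusted p = 0.999 by edgeR). In both cases the LPS-treated library lay outside the controls, and the difference did not pass over all genes. The test of the difference between the lines gave 0.40 ± 0.17 for AREG and 0.44 ± 0.22 for EREG (SE). Neither passed the adjusted threshold by edgeR, where 0.163% of 14086 genes did.

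For the receptors the intervals give an approximate size of a difference that these libraries could have missed. In all cells EGFR was at 38.4 CPM after LPS and at 30.5 and 32.7 CPM in the controls, a log2 fold change of 0.20 with a 95% interval of -0.09 to 0.50. That of ERBB2 was 0.20 (-0.08 to 0.49), that of ERBB3 0.17 (-0.12 to 0.46) and that of MYC 0.03 (-0.27 to 0.33). ERRFI1 (-0.05, interval -0.42 to 0.32) and HBEGF (-0.11, interval -0.49 to 0.27) were each between the controls in level. Of the other genes of the pathway lists none passed in any of these comparisons. The share of HT29-line cells in the LPS-treated library lay between those of the controls.

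**Figure D5:**
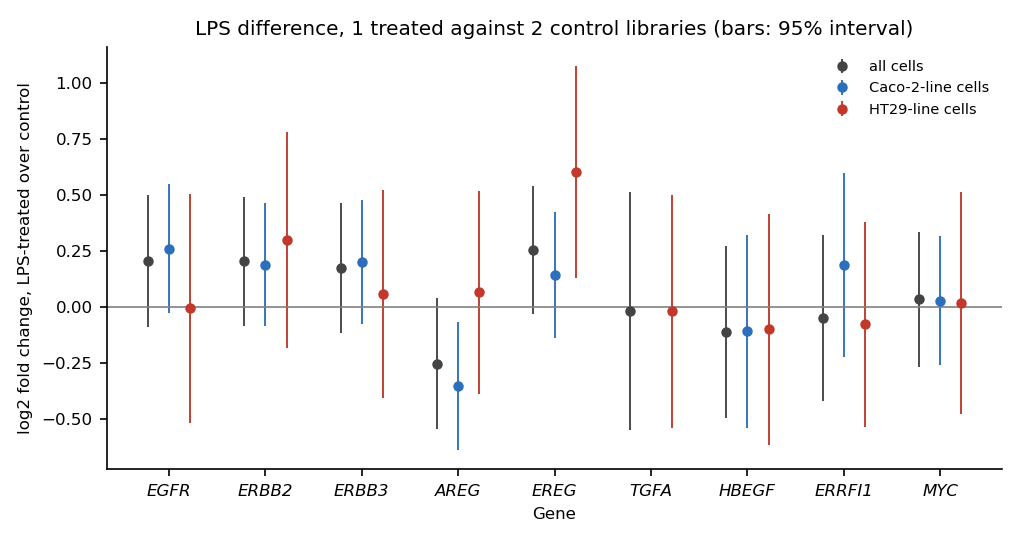
log2 fold change of the LPS-treated library over the 2 controls, with bars for the 95% interval from the SE, for the members in all cells (grey), Caco-2-line cells (blue) and HT29-line cells (red). EREG in HT29-line cells is highest at 0.60 and AREG in Caco-2-line cells lowest at -0.35, and none passed the adjusted threshold.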

How the data were processed

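The 3 libraries of the Caco-2 and HT29 co-culture were measured by single-cell RNA sequencing. The count matrices deposited by the authors hold UMIs per gene and barcode, made with Cell Ranger on GRCh38 and not normalized (33893707, 27934953 and 24185467 UMIs in 5811, 6495 and 6838 barcodes). Different versions of Cell Ranger are named in the sources. The study's minimums per control were applied, and the LPS-treated library took those of control 2 (1500 UMIs and 700 genes), with at most 20% mitochondrial UMIs. Scanpy 1.11.5 marked 0, 0 and 1 cells as doublets, so the 6% with the highest scores were removed. A line was given at a posterior of 0.9 in a mixture fit to a score of 132 HT29 and 673 Caco-2 genes, with members, pathway and held-out genes left out. Clusters came from SCTransform (sctransform 0.4.2), Seurat 5.3.0 anchors on 3000 features and leidenalg 0.10.2 at a resolution of 0.5. UMIs were summed per line and library and tested with edgeR 4.0.16 (TMM, its filter on low counts, Benjamini-Hochberg adjusted p under 0.05) in R 4.3.3, with DESeq2 1.42.0 as another tool. The test was tested on simulated data with the same spread for every gene. Of the genes tested, 197 of 13831 were changed for the line comparison and 198 of 15834 for LPS. For the line comparison it recovered 87.2% of 2-fold and 99.1% of 4-fold changes, with 4.64% of calls false. For LPS it recovered 74.5% and 92.7%, with 9.34% false. In the real line comparison 73.2% of genes passed, a setting that was not simulated, so these are not error rates of the calls given here. The controls are separate libraries, and p-values measure only the spread between libraries. Named were all members, the 10 pathway genes with the largest difference past the threshold and for each member the 2 most similar genes. The held-out genes were named as checks. RHBDF2, ADAM17 and EGF were named outside this rule, and SQLE and TRIB1 were added after their values were seen. Members and lists were chosen with earlier results of these data known. Alternatives covered scaling, test, filter, doublets, cell minimums, line rule, depth, clustering and each library left out.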

Additional observations from a re-analysis of the deposited data

How the results depend on the processing

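Under 13 alternatives of the line comparison, AREG, EREG, TGFA, HBEGF, ERRFI1 and the 10 most different other pathway genes kept direction and call. The fold of TGFA, RHBDL2 and TIMP3 moved by over 1.5 times under the alternatives given beside them in the report. EREG had the highest adjusted p of these, at 0.0476 by edgeR with cells thinned to 1500 UMIs. The calls that changed, for EGFR, ERBB3 and MYC, stand beside those genes in the report. ERBB2 lay at 0, and its log2 fold change turned to -0.048 with no filter, -0.014 at a posterior of 0.99, -0.056 with the line from the cluster and -0.26 with the held-out genes alone, and ranged from -0.014 to 0.033 when a library was left out. The model without the replicate block, in which libraries were not paired, gave 9679 genes past the threshold against 10305 with it and changed no member's call. Without thinning, 51 shares of cells lay above their thinned intervals and 3 within them.

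In the LPS comparison of all cells 17 genes passed, against 6 by DESeq2, 46 with no filter and 11 with no doublets removed. In Caco-2-line cells 12 passed, against 36 with DESeq2 size factors, 3 by DESeq2, 47 with no filter, 47 with no doublets removed and 1 with the higher cell minimums. In HT29-line cells 29 passed, against 5 by DESeq2. The cause of these differences was not tested, and no member passed under any of them. With a control left out there is a value and no test. Without 1 control, log2 fold changes in all cells ranged from -0.17 to 0.31 for TGFA, -0.23 to 0.19 for HBEGF and -0.27 to 0.39 for ERRFI1. In Caco-2-line cells HBEGF ranged from -0.19 to 0.14. In HT29-line cells EGFR ranged from -0.20 to 0.34, ERBB3 from -0.13 to 0.39, TGFA from -0.032 to 0.096, HBEGF from -0.16 to 0.072, ERRFI1 from -0.20 to 0.17 and MYC from -0.094 to 0.25. TGFA was at 0.0011 in all cells with the higher cell minimums, and EGFR at 0.041 in HT29-line cells with no doublets removed. No paired analysis was made, because there is only 1 LPS-treated library and the labels state no pairing with a control. At a resolution of 0.8 the highest cluster reached 62.4 CPM for EGFR, 116 CPM for ERBB2 and 289 CPM for ERBB3. For MYC the highest cluster was at 68.7 CPM. At that resolution, and with log normalization without integration, AREG and EREG did not peak in the cluster where ERBB2 and ERBB3 did. Among the members, TGFA and HBEGF had the fewest UMIs, 328 and 853 in all, which limits their precision.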

Other observations

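Detection in the same cell was tabulated for all 36 pairs of members in each line, at 1500 UMIs a cell. In Caco-2-line cells MYC was found with AREG and with EREG in more cells than the product of their shares. AREG and MYC were found together in 131 cells, where the product of their shares gives 85.1, and EREG and MYC in 55 cells, where it gives 34.6, above the product in all 3 libraries for each. AREG was found with ERBB2 and with ERBB3 in fewer cells than that product. AREG was found together with ERBB2 in 90 cells against 117 and with ERBB3 in 260 cells against 293, below the product in all 3 libraries for each. In Caco-2-line cells 11 pairs were above and 7 below the product in all 3 libraries, 5 of the latter being pairs with TGFA in which no cell held both. The median ratio over the 36 pairs was 1.12 in Caco-2-line and 1.11 in HT29-line cells. These are descriptions over cells that share libraries, and cell state was not held fixed.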
